A study of Mus musculus with 41 samples.

Results

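The 10 core genes of the circadian clock, Arntl, Clock, Per1, Per2, Per3, Cry1, Cry2, Nr1d1, Nr1d2 and Dbp, were followed in bulk RNA sequencing of mouse bone. They were chosen by gene symbol from the 43346 genes of the deposited count table, and all 10 were among the 19292 genes tested. The bones were tibia diaphyses, spun to remove marrow, from 41 female INK-ATTAC mice on a C57BL/6 background. The comparison groups were 12 young mice, entered as vehicle in the labels and given no AP, 13 old mice given vehicle for 4 months and 16 old mice given AP20187 (AP) at 10 mg per kg, 2 doses a week, for the same 4 months. All 3 groups carried the transgene, in which the p16Ink4a promoter drives a caspase that AP dimerizes, so that AP acts only in cells where that promoter is active. The labels give 6 to 12 months for young mice and 20 months for old mice at the first dose, whereas the methods give 6 months and sacrifice at 24 months. The hour of sacrifice is not given in the sources used here. The mice were housed under a light/dark cycle.

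The clock runs on a loop of transcription. The ARNTL (BMAL1) and CLOCK proteins bind E-boxes and switch on the Per, Cry, Nr1d and Dbp genes, the PER and CRY proteins then block ARNTL and CLOCK, and the NR1D proteins (REV-ERB) repress Arntl through ROR elements. Arntl transcripts therefore peak at about the opposite time of day from those of Dbp, Nr1d1 and the Per genes, and the same genes cycle in bone, where clock genes affect bone mass. The question put to these data was whether the 10 genes moved together between groups, and in opposite directions on the 2 arms of the loop, as a difference in the hour of harvest would give.

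The letters through which the loop acts were looked up in the RefSeq promoter windows (GRCm38.p6), which covered 9 of the 10 genes, all but Per2. In the 250 bases before each start, both strands were searched for the E-box CACGTG, the D-box TTANGTAA (bound by DBP) and TNGGTCA, a loose pattern for the ROR element. This ROR pattern leaves its second base open, so that a match need not be a ROR element. An E-box lay before Per1 and Cry1, 2 of 9 genes, as it did before 6.86% of 27025 genes. A D-box lay before Per3 alone, 1 of 9 genes, against 2.44% of all genes. A match to the ROR pattern lay before Arntl, Cry2 and Per3, 3 of 9 genes, against 10.5% of all genes. Matches of each of the 3 motifs are shown. Each is read 5′ to 3′ on the strand of its gene, with the motif in capitals, and no 2 of them share a motif base.
Per1 E-box, chr11:69098772-69098799 (+): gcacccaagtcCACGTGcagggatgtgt
Cry1 E-box, chr10:85185098-85185125 (-): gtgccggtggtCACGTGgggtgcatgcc
Per3 D-box, chr4:151044852-151044881 (-): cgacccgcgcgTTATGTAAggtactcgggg
Per3 D-box, chr4:151044805-151044834 (-): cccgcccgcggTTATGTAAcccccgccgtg
Cry2 ROR element, chr2:92434185-92434213 (-): gccgacgctgcTGACCAAtggaacagagg
The Cry2 match lies on the strand opposite to the gene, as does a Per3 match to the ROR pattern that is not shown. Read on its own strand, the Cry2 match has T at the open base, and its ROR label names only the pattern searched. A match describes these letters in these windows and does not show binding.

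Total counts ranged from 37028959 to 75942717 per mouse (median 47774880), and no 2 libraries of a group were alike within counting error. All 11 osteoblast and osteocyte markers were read in every mouse, among them Bglap, Dmp1 and Sost. The 15 skeletal muscle markers were also read in every mouse, with a summed level of 21204 to 119859 CPM (read counts scaled to library size) in young, 20376 to 154228 in old vehicle and 10074 to 121700 in old AP mice. The 8 neutrophil markers summed to 7936 to 19100 CPM in young, 4832 to 25263 in old vehicle and 8767 to 33643 in old AP mice. In such bulk samples, fewer cells of a type and less RNA per cell cannot be told apart.

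Per kilobase of the transcript length in the table, Nr1d1 had the highest level of the 10 genes, with 30.3 ± 10.1 RPKM (SD, n = 41). It was followed by Nr1d2 (15.5 ± 3.87), Per1 (14.2 ± 6.97), Dbp (9.61 ± 4.00), Arntl (8.34 ± 2.94), Cry2 (6.39 ± 1.71), Cry1 (5.87 ± 0.93), Clock (5.60 ± 1.14), Per3 (4.05 ± 0.91) and Per2 (3.56 ± 1.01). Neighbours in this order differed by less than the larger of their SDs, except Nr1d1 against Nr1d2 and Clock against Per3. The order pools the groups and changes within them. In young mice Clock (mean 6.45 RPKM) lay above Cry1 (5.16) and Cry2 (4.83), and in old vehicle mice Per1 (16.4) lay above Nr1d2 (14.4). All values below are TMM-normalized CPM, and fold changes are log2 values from the quasi-likelihood test of edgeR, whose p-values were adjusted by the Benjamini-Hochberg method over all genes tested. To be called, a gene needed an adjusted p below 0.05 together with a log2 difference of more than 0.5 in size.

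**Figure D1:**
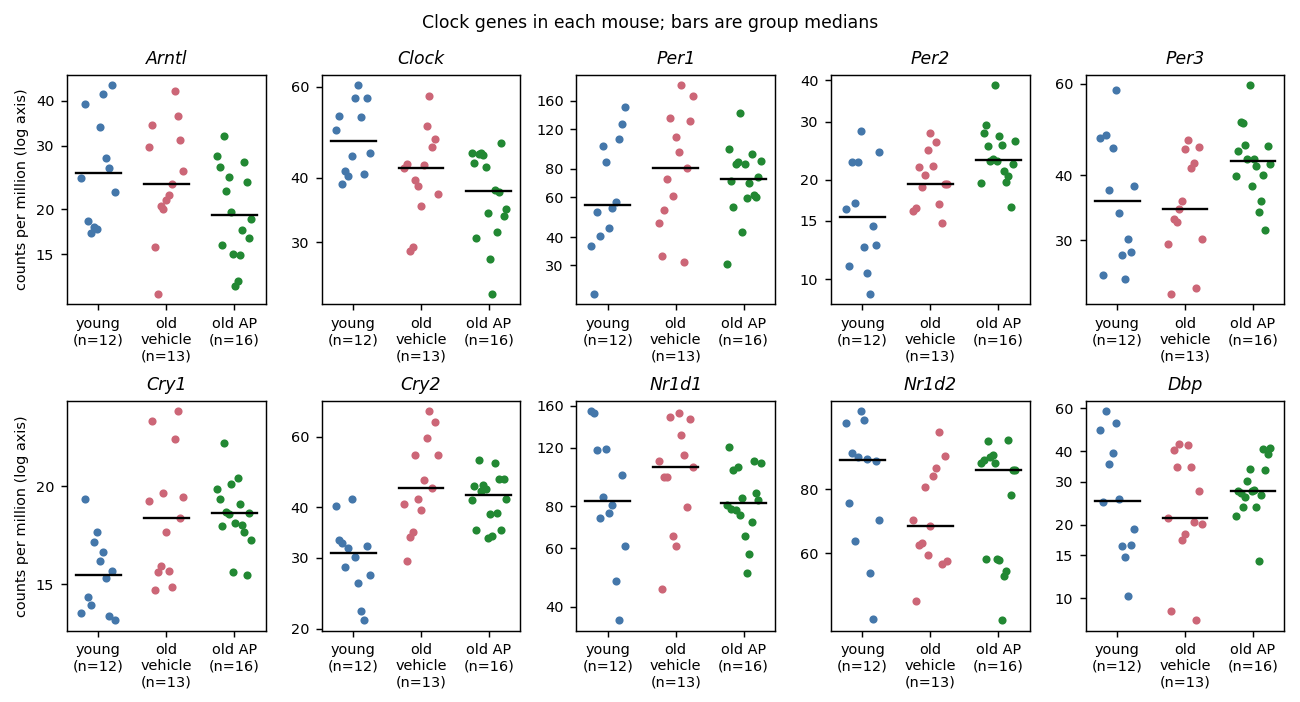
Level of each clock gene in each mouse, in CPM on a log axis, with a bar at the group median. Cry2 lay above the young median in 12 of 13 old vehicle mice and 16 of 16 old AP mice, whereas Dbp and Per1 ranged widely within each group.

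Between old vehicle and young mice 1 of the 10 clock genes was called, Cry2, which was higher in old mice, and 9.06% of all genes tested were called. At the adjusted p alone 2 members passed, Cry2 and Cry1, both higher in old mice, and 19.4% of all genes passed. The 10 log2 fold changes were positive for 5 genes and negative for 5, with a median of 0.06 beside 0.01 over all genes tested.

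Cry2 (ENSMUSG00000068742, chr2:92403646-92434043, minus strand) encodes a repressor of ARNTL and CLOCK. Its lowest, median and highest levels were 20.98, 30.9 and 41.9 CPM in young mice, 29.4, 44.8 and 69.3 in old vehicle mice and 33.7, 43.0 and 52.5 in old AP mice. The groups overlapped, although 8 of 13 old vehicle mice and 9 of 16 old AP mice exceeded the highest young mouse. Cry2 was 0.63 higher on the log2 scale in old vehicle than in young mice (SE 0.12, 95% interval 0.39 to 0.87, adjusted p 0.000205), a 1.55-fold difference. With the skeletal muscle score as a covariate the difference was 0.49 (adjusted p 9.32e-05), just under the fold threshold, and with the neutrophil score it was 0.70 (adjusted p 1.83e-06). Against young mice the old AP mice were 0.47 higher (SE 0.11, adjusted p 0.00328), also under that threshold. Of the 6320 exonic bases of Cry2, 295 are shared with D930015M05Rik on the other strand, and whether the counting used strand is not given in the sources used here.

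Cry1 (ENSMUSG00000020038, chr10:85131702-85185054, minus strand), the paralog of Cry2 with the same repressor role, ranged from 13.5 to 19.3 CPM in young mice (median 15.4). In old vehicle mice the median was 18.2 CPM (14.7 to 24.96), and in old AP mice it was 18.5 CPM (15.4 to 22.8). The ranges overlapped, with 11 of 13 old vehicle and 15 of 16 old AP mice above the young median. The log2 difference from young mice was 0.26 (SE 0.08, adjusted p 0.0162) for old vehicle and 0.25 (SE 0.08, adjusted p 0.0185) for old AP mice, in both cases within the fold threshold. These 2 comparisons share the 12 young mice.

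Between old AP and old vehicle mice, whose labels give the same age and differ in treatment, 0 of the 10 clock genes were called. This held for edgeR and for DESeq2, with and without the fold threshold. Of all genes tested 0.0726% were called, and 0.171% passed at the adjusted p alone. A single member, Per3, had an unadjusted p under 0.05 by edgeR, as did 1 member by DESeq2. Log2 fold changes ranged from -0.33 for Arntl to 0.26 for Per3, with a median of -0.07 beside 0.00 over all genes tested. The interval of the difference excluded a change beyond 0.5 either way for Cry1 (-0.16 to 0.14), Clock (-0.33 to 0.06), Cry2 (-0.38 to 0.06) and Nr1d2 (-0.17 to 0.38), as well as for Per3 (0.03 to 0.50, upper bound 0.498). For Dbp (-0.31 to 0.64), Per1 (-0.83 to 0.21), Arntl (-0.68 to 0.02), Nr1d1 (-0.65 to 0.06) and Per2 (-0.02 to 0.53) it did not.

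Between old AP and young mice 1 of the 10 members was called, Per2, and 8.58% of all genes were called. At the adjusted p alone 4 members passed, Per2, Cry2 and Cry1 higher and Clock lower in old AP mice, beside 17.8% of all genes. The fold changes were again positive for 5 genes and negative for 5 (median -0.01, beside 0.02 over all genes).

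**Figure D2:**
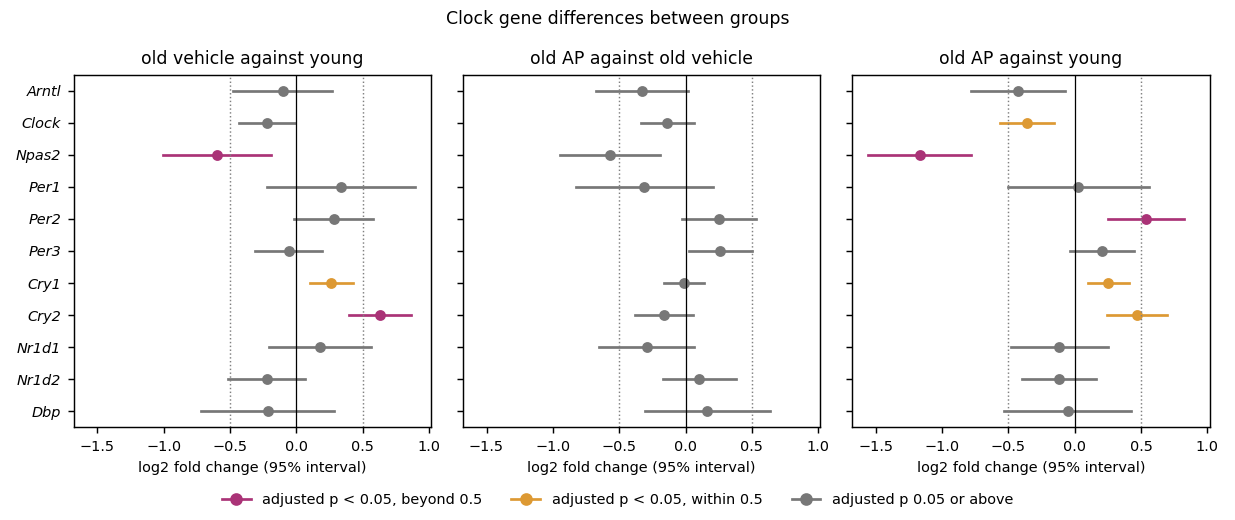
Log2 fold change of the clock genes and Npas2 in the 3 comparisons, with the 95% interval derived from edgeR's F statistic as a line and the threshold of 0.5 as dotted lines. Cry2 and Npas2 passed between old vehicle and young mice, no gene shown passed between the old groups, and Per2 and Npas2 passed between old AP and young mice.

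Arntl and Clock form the activating arm. Arntl (ENSMUSG00000055116, chr7:113207465-113314122, plus strand) had lowest, median and highest levels of 17.2, 25.2 and 44.3 CPM in young, 11.6, 23.6 and 42.6 in old vehicle and 12.2, 19.3 and 32.1 in old AP mice. The groups overlapped over most of this range, and 6 of 16 old AP mice lay below the lowest young mouse. The log2 difference was -0.10 (SE 0.18, adjusted p 0.751) between old vehicle and young, -0.33 (SE 0.17, adjusted p 0.234) between old AP and old vehicle, and -0.43 (SE 0.18, adjusted p 0.0821) between old AP and young mice. With the muscle score as a covariate these were -0.31 (adjusted p 0.0608), -0.09 (adjusted p 0.72) and -0.40 (adjusted p 0.00881), the last past the adjusted p but not the fold threshold. Without single mice the adjusted p of the last comparison ranged from 0.0454 to 0.174.

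Clock (ENSMUSG00000029238, chr5:76212177-76304548, minus strand), the partner of Arntl, had lowest, median and highest levels of 38.9, 47.0 and 60.5 CPM in young, 28.8, 41.8 and 57.6 in old vehicle and 23.8, 37.7 and 46.7 in old AP mice. None of the 16 old AP mice reached the young median, and 9 of them lay below every young mouse. Clock fell by 0.36 on the log2 scale between young and old AP mice (SE 0.10, adjusted p 0.00999), within the fold threshold. Between old vehicle and young mice the log2 difference was -0.22 (SE 0.10, adjusted p 0.129). With the muscle score as a covariate these differences were -0.35 (adjusted p 3.55e-05) and -0.36 (adjusted p 9.68e-05), and with the neutrophil score they were -0.20 (adjusted p 0.0578) and -0.11 (adjusted p 0.273).

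The Per genes encode the PERIOD repressors. Per2 (ENSMUSG00000055866, chr1:91415982-91459324, minus strand) had lowest, median and highest levels of 9.02, 15.4 and 28.2 CPM in young, 14.8, 19.5 and 27.8 in old vehicle and 16.5, 22.997 and 38.8 in old AP mice. All 16 old AP mice and 12 of 13 old vehicle mice exceeded the young median, and the low end of the range was held by young mice. Per2 was 0.54 higher in old AP than in young mice (SE 0.14, adjusted p 0.0073), a 1.45-fold difference. It fell just under the fold threshold, at 0.48 to 0.49, without old AP mouse 12 or without young mouse 31, 37 or 38. The log2 difference was 0.28 (SE 0.15, adjusted p 0.18) between old vehicle and young mice and 0.25 (SE 0.14, adjusted p 0.248) between the old groups.

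Per1 (ENSMUSG00000020893, chr11:69095217-69109960, plus strand), which also answers acutely to hormones and stress, had the widest range of the 10 genes, from 22.4 to 149.8 CPM in young mice (median 55.6). The median was 81.0 CPM in old vehicle mice (31.03 to 187.9) and 72.0 CPM in old AP mice (30.2 to 140.7). Against this spread the log2 differences of 0.34, -0.31 and 0.03 in the order of the comparisons above had adjusted p-values of 0.422, 0.457 and 0.956. Per3 (ENSMUSG00000028957, chr4:151003652-151044665, minus strand) ranged from 25.3 to 58.2, 23.7 to 46.8 and 31.5 to 59.6 CPM in young, old vehicle and old AP mice, with medians of 35.7, 34.5 and 42.5. Old AP mice exceeded the old vehicle median in 14 of 16 cases, with a log2 difference of 0.26 (SE 0.12, adjusted p 0.162).

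Nr1d1 and Nr1d2 encode the REV-ERB repressors of Arntl. Nr1d1 (ENSMUSG00000020889, chr11:98767932-98775333, minus strand) had medians of 83.2, 105.0 and 82.2 CPM in young, old vehicle and old AP mice, with ranges of 36.5 to 154.2, 45.1 to 152.1 and 50.6 to 120.2. The 3 ranges overlapped almost wholly, and the log2 differences were 0.18 (adjusted p 0.563), -0.29 (adjusted p 0.307) and -0.12 (adjusted p 0.696). Of the 3077 exonic bases of Nr1d1, 263 are shared with Thra on the other strand. Nr1d2 (ENSMUSG00000021775, chr14:18204054-18239127, minus strand) had medians of 91.4, 67.9 and 87.3 CPM, with ranges of 44.7 to 113.7, 48.3 to 103.4 and 44.4 to 99.7, and log2 differences of -0.22 (adjusted p 0.293), 0.10 (adjusted p 0.645) and -0.12 (adjusted p 0.584). With the muscle score as a covariate these were -0.36 (adjusted p 0.00927), 0.25 (adjusted p 0.179) and -0.11 (adjusted p 0.418), and with the neutrophil score they were -0.08 (adjusted p 0.587), 0.19 (adjusted p 0.246) and 0.11 (adjusted p 0.494). The old AP mice fell into 2 sets on Nr1d2, 6 mice (5, 17, 18, 19, 24 and 25) between 44.4 and 58.5 CPM and 10 mice between 78.0 and 99.7 CPM. Of the 6, mice 5, 17, 18, 19 and 25 had the 5 lowest skeletal muscle scores of the old AP group, and mice 5, 18, 19, 24 and 25 had its 5 highest neutrophil scores. The part of either tissue in the split was not tested.

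Dbp (ENSMUSG00000059824, chr7:45705088-45710155, plus strand), an output factor that binds D-boxes and is among the genes with the largest daily swing, ranged from 10.2 to 58.3 CPM in young mice (median 25.1). The median was 21.3 CPM in old vehicle mice (8.12 to 42.8) and 27.4 CPM in old AP mice (14.2 to 41.2). The medians lay close together while mice of a group differed by 2.90- to 5.72-fold between lowest and highest. The log2 differences were -0.22 (SE 0.25, adjusted p 0.591), 0.16 (SE 0.23, adjusted p 0.676) and -0.05 (SE 0.24, adjusted p 0.906). Sphk2, on the other strand, shares 539 of the 2993 exonic bases of Dbp.

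The 2 arms of the loop were then set side by side. Arntl and Clock had negative log2 fold changes in all 3 comparisons. Of the 6 genes of the opposite phase, Per1, Per2, Per3, Nr1d1, Nr1d2 and Dbp, 3 were positive between old vehicle and young, 4 between old AP and old vehicle and 3 between old AP and young mice. The comparisons share mice, so that their signs are not independent. Cry1 and Cry2 were both positive, both negative and both positive in the same order. Between old AP and young mice the 4 members past the adjusted p were Clock, lower, and Per2, Cry1 and Cry2, higher, while Dbp, Nr1d1 and Nr1d2 had differences of -0.05, -0.12 and -0.12. A phase index was also taken in each mouse, the mean z-score of the 6 opposite-phase genes minus that of Arntl and Clock. Its median was -0.79 in young, 0.00 in old vehicle and 0.60 in old AP mice. In that order its ranges were -2.53 to 1.42, -2.35 to 1.67 and -0.75 to 1.86, which overlapped. Whether the index differed between groups was not tested. The part of the hour of harvest in these differences was not tested.

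The rest of the clock was described with a list of 19 further clock genes, of which 18 were tested. Between old vehicle and young mice 2 were called, Npas2 lower and Nfil3 higher, between the old groups 0, and between old AP and young mice 2, Npas2 lower and Wee1 higher. Beside the 9.06%, 0.0726% and 8.58% of all genes called in these comparisons, 2 of 18 is close to the background. The list medians were 0.19, -0.05 and 0.19 beside 0.01, 0.00 and 0.02 over all genes. Between the old groups DESeq2 called 1 of the 18, Npas2, beside 1.27% of all genes it tested. By edgeR 6 of the 18 had an unadjusted p under 0.05 there. Counts at an unadjusted p have no share of all genes beside them, as none was computed.

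Npas2, a paralog of Clock that also pairs with ARNTL, had lowest, median and highest levels of 5.49, 10.6 and 15.1 CPM in young, 4.89, 6.03 and 9.98 in old vehicle and 1.20, 4.52 and 9.09 in old AP mice. No old mouse, of 29, reached the young median, although the ranges overlapped. Npas2 fell by 1.17 on the log2 scale between young and old AP mice (SE 0.19, adjusted p 4.24e-05). Between young and old vehicle mice it fell by 0.60 (SE 0.20, adjusted p 0.0302), a call lost without young mouse 31, 38 or 39 (adjusted p 0.0502 to 0.0673) and with the neutrophil score as a covariate (-0.46, adjusted p 0.0638). Between the old groups the difference of -0.57 had an adjusted p of 0.0817 by edgeR and 0.0464 by DESeq2.

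Nfil3, a repressor that competes with DBP for D-boxes, had medians of 17.6, 26.8 and 23.3 CPM and was 0.53 higher in old vehicle than in young mice (adjusted p 0.0285). The call was lost with the muscle score as a covariate (0.39, adjusted p 0.0358), in a model of these 2 groups (0.53, adjusted p 0.0648) and without old vehicle mouse 21 or 23 or young mouse 30, 32, 33, 38, 39 or 41 (0.41 to 0.50). Wee1, a kinase gene of the cell cycle under clock control, had medians of 8.002, 9.14 and 11.5 CPM and was 0.57 higher in old AP than in young mice (adjusted p 0.00297), with 10 of 16 old AP mice above every young mouse. It fell under the fold threshold with the neutrophil score as a covariate (0.30, adjusted p 0.0161) and without old AP mouse 19 (0.47). Bhlhe41 (0.49, adjusted p 0.0327) and Bhlhe40 (0.37, adjusted p 0.0476), which encode the DEC repressors, and Csnk1e (0.14, adjusted p 0.0179), a kinase of the PER proteins, passed the adjusted p but not the fold threshold between old vehicle and young mice. Bhlhe41 also passed the fold threshold with the neutrophil score as a covariate (0.60) and without old vehicle mouse 2, 6, 7, 14 or 21 or young mouse 30, 32, 35 or 36 (0.51 to 0.57), and missed the adjusted p without old vehicle mouse 16, 20, 22 or 23 or young mouse 38, 39 or 41 (up to 0.0696). With single mice left out the adjusted p of Bhlhe40 reached 0.121, without old vehicle mouse 16. Tef and Hlf, the relatives of Dbp, had differences of 0.35 (adjusted p 0.156) and 0.21 (adjusted p 0.35) there.

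Glucocorticoids and body temperature carry time signals to tissues, and lists of genes that answer to each were examined beside the clock. Of 10 glucocorticoid-responsive genes, Fkbp5, a chaperone gene induced by the hormone, was higher in old vehicle (0.82, adjusted p 0.0003) and in old AP (0.62, adjusted p 0.00351) than in young mice. It was the single call of the list between old vehicle and young mice, 1 of 10 beside 9.06% of all genes, and with Pdk4 made 2 of 10 between old AP and young mice, beside 8.58%, so that neither count stood far from the background. The medians of Fkbp5 were 39.9, 77.6 and 64.3 CPM, and each of the 29 old mice exceeded the median of young mice. Pdk4, a regulator of fuel choice, fell by 1.03 between young and old AP mice (adjusted p 0.038). That call was lost with the neutrophil score as a covariate (-0.65, adjusted p 0.192) and without any of old AP mice 5, 11, 17, 18, 19 and 25 or young mice 30, 31, 35, 37 and 40 (adjusted p 0.0501 to 0.0985). Cdkn1a, a cell cycle inhibitor gene, passed the adjusted p but not the fold threshold between old vehicle and young mice (0.49, adjusted p 0.0437), and with single mice left out it ranged from 0.41 to 0.56 (adjusted p 0.0207 to 0.0962). With the neutrophil score as a covariate it was 0.67 (adjusted p 0.000204). Tsc22d3 and Zbtb16, which the hormone also induces, had differences of 0.07 (adjusted p 0.853) and 0.10 (adjusted p 0.843) between old vehicle and young mice and -0.24 (adjusted p 0.453) and -0.12 (adjusted p 0.784) between old AP and young mice. Between the old groups 0 of 10 were called by edgeR, beside 0.0726% of all genes, and 2 had an unadjusted p under 0.05. DESeq2 called 2 of 10, beside 1.27% of all genes it tested. All 10 had a negative difference there, with a median of -0.28. The metallothionein genes Mt1 and Mt2, the pair called by DESeq2 there, had differences of -0.88 (adjusted p 0.068 by edgeR) and -1.03 (adjusted p 0.0812). These rested on old vehicle mouse 16, with 290.4 CPM of Mt1 and 328.5 CPM of Mt2 beside group medians of 54.2 and 29.3, and without it they were -0.49 (adjusted p 0.22) and -0.27 (adjusted p 0.528).

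Of 8 temperature-responsive genes, the heat shock genes Hspa1a (0.73, adjusted p 0.0424) and Hspa1b (0.85, adjusted p 0.00859) were higher in old vehicle than in young mice. They made 2 of 8 called there, beside 9.06% of all genes. The call of Hspa1a was lost without any of old vehicle mice 1, 8, 15, 16, 21, 22 and 23 or young mice 32, 33, 34, 37, 38, 39 and 41 (adjusted p 0.0513 to 0.078). These near-identical copies can share reads, so that their separate values are uncertain. Between the old groups 0 of 8 were called by edgeR, beside 0.0726% of all genes, and 4 had an unadjusted p under 0.05. DESeq2 called 2 there, beside 1.27% of all genes it tested. Of the 8 genes 3 were higher and 5 lower in old AP mice. By edgeR Hspa1a had -0.76 (adjusted p 0.0761) and Hspa1b -0.70 (adjusted p 0.0704). In each case 10 of 16 old AP mice lay below every old vehicle mouse. Between old AP and young mice 0 of 8 were called by edgeR and by DESeq2, and 1 had an unadjusted p under 0.05 by each. By edgeR it was Hsp90aa1, a heat shock gene that passed the adjusted p but not the fold threshold (0.30, adjusted p 0.0426), and that had 0.15 (adjusted p 0.25) with the neutrophil score as a covariate. The cold-inducible genes Cirbp and Rbm3 had differences of 0.19 (adjusted p 0.202) and -0.10 (adjusted p 0.573) between old vehicle and young mice. Between the old groups they had -0.19 (adjusted p 0.212) and 0.28 (adjusted p 0.101).

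The spread between mice of a group was compared with that of all genes tested. In young mice the SD of log2 CPM was 0.83 for Per1, 0.81 for Dbp and 0.64 for Nr1d1, beside a median of 0.29 over all genes tested, and 8 of the 10 members exceeded that median. In old vehicle mice the same genes had SDs of 0.85, 0.79 and 0.54, beside a median of 0.36, and 5 members exceeded it. In old AP mice they were 0.52, 0.39 and 0.35, beside 0.38, and 4 members exceeded it. Cry1 and Clock had SDs below the median gene in all 3 groups. Whether the spread differed between groups was not tested.

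The log2 ratio of Dbp to Arntl, 2 genes of opposite phase, does not depend on how the libraries were scaled. In young mice it ranged from -1.42 to 1.65 (median -0.32), in old vehicle mice from -2.15 to 1.56 (median -0.21) and in old AP mice from -0.45 to 1.22 (median 0.59). Dbp exceeded Arntl in 5 of 12 young, 5 of 13 old vehicle and 13 of 16 old AP mice. Among young mice the 5 with more Dbp (30, 32, 33, 34 and 35) had ratios of 0.997 to 1.65, and the others (31 and 36 to 41) had ratios of -1.42 to -0.22, so that no young mouse lay between. The lowest ratios of all belonged to old vehicle mice 21 and 2, at -2.15 and -1.94.

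**Figure D3:**
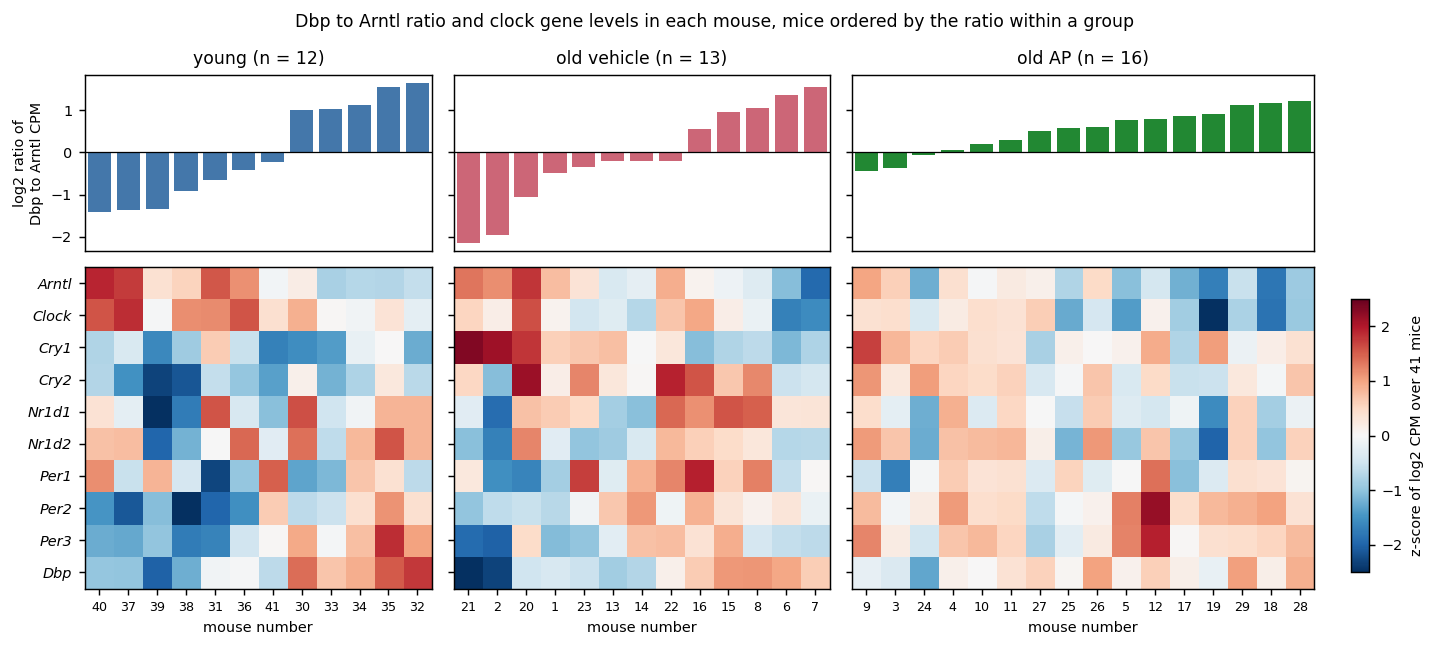
Above, the log2 ratio of Dbp to Arntl CPM in each mouse, with mice ordered by it within a group; below, the z-score of log2 CPM over all 41 mice for each clock gene (red above and blue below the mean). The ratio spanned -1.42 to 1.65 in young, -2.15 to 1.56 in old vehicle and -0.45 to 1.22 in old AP mice.

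Correlations of Arntl with each other member were computed on log2 CPM within each group, 27 relations in all, with 100000 permutations and Benjamini-Hochberg adjustment over the 27. By Pearson's r 8 relations passed an adjusted p of 0.05, 3 in young, 2 in old vehicle and 3 in old AP mice. Arntl and Clock rose and fell together in every group. In young mice r was 0.89 (permutation p 0.00028, adjusted 0.00209) and rho 0.80 (permutation p 0.00268, adjusted 0.0175). In old vehicle mice r was 0.84 (permutation p 0.00031, adjusted 0.00209) and rho 0.80 (permutation p 0.00138, adjusted 0.0124). In old AP mice r was 0.84 (permutation p 4e-05, adjusted 0.00054) and rho 0.78 (permutation p 0.00042, adjusted 0.00567). Without the 2 mice farthest from the median of Arntl r was 0.82, 0.69 and 0.81.

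Of the 6 genes of the opposite phase, Per2 and Per3 moved against Arntl in young mice and the others did not pass. For Per2 r was -0.79 (permutation p 0.00323, adjusted 0.0125) and rho -0.79 (permutation p 0.00346, adjusted 0.0175), and r without the 2 farthest mice was -0.79. For Per3 r was -0.78 (permutation p 0.00402, adjusted 0.0136) and rho -0.75 (permutation p 0.00723, adjusted 0.0244), and r without those mice was -0.75. For Dbp r was -0.61 (permutation p 0.0373, adjusted 0.101) and rho -0.63 (permutation p 0.0327, adjusted 0.0922), which did not pass. Without those mice r for Dbp was -0.52. For Per1, Nr1d1 and Nr1d2 r was -0.17, 0.04 and 0.02 (permutation p 0.599, 0.902 and 0.958, adjusted 0.736, 0.937 and 0.958; rho 0.007, 0.007 and -0.13, permutation p 0.991, 0.991 and 0.685, adjusted 0.991, 0.991 and 0.881). The young mice span both sides of the gap in the ratio of Dbp to Arntl. Within the 7 of lower ratio, a set added after the data were seen, r with Arntl was -0.59 for Per2 (exact permutation p 0.156, adjusted over 4 relations 0.312; rho -0.43, p 0.354, adjusted 0.471), -0.51 for Per3 (p 0.243, adjusted 0.324; rho -0.43, p 0.354, adjusted 0.471), 0.32 for Dbp (p 0.482, adjusted 0.482; rho 0.18, p 0.713, adjusted 0.713) and 0.82 for Clock (p 0.0222, adjusted 0.0889; rho 0.79, p 0.048, adjusted 0.192). None passed at this size, Clock included, and the split itself narrows the range of Arntl, so that these values do not show a relation to be absent within the set. The set was also chosen on the ratio of Dbp to Arntl, so that its r for Dbp is no test of that relation. The 5 mice of higher ratio were too few for a correlation.

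In old vehicle mice the corresponding values did not pass. For Per3 r was -0.15 (permutation p 0.628, adjusted 0.737) and rho -0.15 (permutation p 0.616, adjusted 0.875). For Per2 r was -0.54 (permutation p 0.0564, adjusted 0.127) and rho -0.60 (permutation p 0.0341, adjusted 0.0922). For Dbp r was -0.61 (permutation p 0.0275, adjusted 0.0826) and rho -0.48 (permutation p 0.097, adjusted 0.218). Without the 2 mice farthest from the median of Arntl, 7 and 20, r was -0.48 for Per3, -0.75 for Per2 and -0.70 for Dbp. No p was computed for these. Cry1, whose peak follows that of the Per genes, rose with Arntl in these mice, with r 0.78 (permutation p 0.00136, adjusted 0.00612), rho 0.72 (permutation p 0.00691, adjusted 0.0244) and r 0.79 without the 2 farthest mice.

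In old AP mice r with Arntl was 0.10 for Per3 (permutation p 0.699, adjusted 0.787; rho 0.12, permutation p 0.658, adjusted 0.881). It was -0.22 for Per2 (permutation p 0.425, adjusted 0.675; rho -0.25, permutation p 0.349, adjusted 0.673) and 0.17 for Dbp (permutation p 0.544, adjusted 0.713; rho 0.04, permutation p 0.892, adjusted 0.964). Without the 2 farthest mice r was -0.0075 for Per3, -0.23 for Per2 and 0.30 for Dbp. Nr1d1, a repressor of Arntl, rose with it there, with r 0.74 (permutation p 0.0009, adjusted 0.00486), rho 0.69 (permutation p 0.00388, adjusted 0.0175) and r 0.71 without the 2 farthest mice. In the same mice both genes followed the skeletal muscle and neutrophil marker scores, Nr1d1 with an r of 0.72 for muscle (permutation p 0.00156, adjusted 0.0072; rho 0.64, permutation p 0.00888, adjusted 0.0381) and -0.61 for neutrophils (permutation p 0.0128, adjusted 0.0428; rho -0.61, permutation p 0.0137, adjusted 0.0485), and Arntl with 0.79 and -0.77 (permutation p 0.00024 and 0.00055, adjusted 0.00214 and 0.003). The part of tissue makeup in the relation was not tested. Nr1d2 also passed in these mice with a positive r, and since they fall into 2 sets on that gene its r is given within each. Within the 6 mice of low Nr1d2, r with Arntl was 0.40 (exact permutation p 0.492; rho 0.31, exact permutation p 0.564), and within the 10 of high Nr1d2 it was 0.49 (permutation p 0.149; rho 0.60, permutation p 0.0727). Both were positive, and sets of this size leave a wide margin. On Arntl the 6 mice lay between 12.2 and 17.6 CPM and the other 10 between 16.6 and 32.1 CPM. The r values over all old AP mice, those for Nr1d1, Clock and the marker scores included, span both sets. Whether any correlation differed between the groups was not tested.

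**Figure D4:**
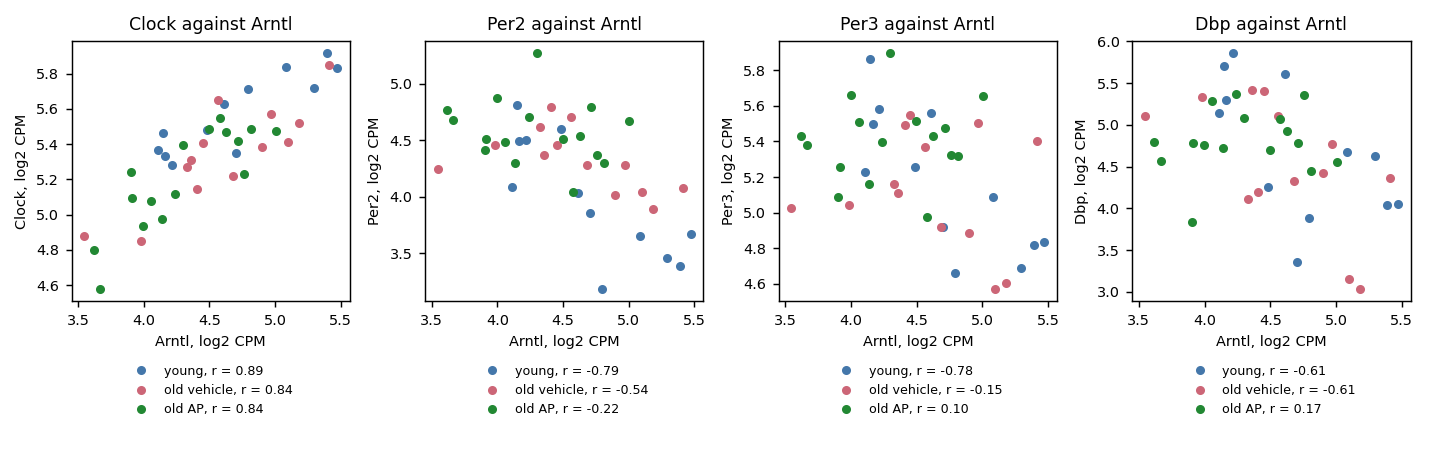
Clock, Per2, Per3 and Dbp against Arntl in each mouse, both axes in log2 CPM, with Pearson's r within each group in the legend. Clock rose with Arntl in all 3 groups (r 0.84 to 0.89), whereas Per2 and Per3 fell against Arntl over the 12 young mice (r -0.79 and -0.78).

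Marker genes of other tissues were set beside the clock genes. Each mouse was given a skeletal muscle score and a neutrophil score, the mean z-score of the markers, and both were correlated with the 10 members within each group, 60 relations that were added once the levels were known. The muscle score passed an adjusted p of 0.05 in 11 of its 30 relations, all positive, and the neutrophil score in 9 of 30, all negative. With the muscle score Arntl had an r of 0.69 in young (permutation p 0.0166, adjusted 0.0499; rho 0.69, permutation p 0.0166, adjusted 0.0511), 0.80 in old vehicle (permutation p 0.00084, adjusted 0.0042; rho 0.76, permutation p 0.00379, adjusted 0.0207) and 0.79 in old AP mice (permutation p 0.00024, adjusted 0.00214; rho 0.76, permutation p 0.00102, adjusted 0.0068). Without the 2 mice farthest from the median score these were 0.51, 0.50 and 0.67. Clock had an r of 0.77 in young (permutation p 0.00559, adjusted 0.0224; rho 0.72, permutation p 0.0104, adjusted 0.0402), 0.85 in old vehicle (permutation p 0.00025, adjusted 0.00214; rho 0.75, permutation p 0.00453, adjusted 0.0226) and 0.81 in old AP mice (permutation p 0.00021, adjusted 0.00214; rho 0.63, permutation p 0.0107, adjusted 0.0402). Without the 2 farthest mice these were 0.70, 0.66 and 0.59.

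With the neutrophil score Clock had an r of -0.87 in young (permutation p 0.00035, adjusted 0.00253; rho -0.87, permutation p 0.00048, adjusted 0.0048) and -0.88 in old AP mice (permutation p 1e-05, the smallest these permutations can give, adjusted 0.0006; rho -0.80, permutation p 0.00044, adjusted 0.0048). In old vehicle mice its r of -0.47 did not pass (permutation p 0.103, adjusted 0.206; rho -0.45, permutation p 0.13, adjusted 0.261). Without the 2 farthest mice r was -0.90 in young and -0.80 in old AP mice. Nr1d2 had an r of -0.83 with this score in old vehicle mice (permutation p 0.00022, adjusted 0.00214; rho -0.96, permutation p 1e-05, adjusted 0.0006), and -0.95 without the 2 farthest. The part of either tissue in the levels of these genes was not tested.

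Cry2, the member called between old vehicle and young mice, had an r with the muscle score of 0.82 in old vehicle (permutation p 0.00044, adjusted 0.00264; rho 0.87, permutation p 0.00016, adjusted 0.0032) and 0.78 in old AP mice (permutation p 0.00018, adjusted 0.00214; rho 0.81, permutation p 0.00022, adjusted 0.0033). In young mice its r of 0.48 did not pass (permutation p 0.119, adjusted 0.216; rho 0.43, permutation p 0.172, adjusted 0.313). Without the 2 farthest mice r was 0.87, 0.78 and 0.52 in the order given. With the neutrophil score Cry2 had an r of -0.68 in old vehicle mice (permutation p 0.00847, adjusted 0.0318; rho -0.66, permutation p 0.017, adjusted 0.0511), and -0.62 without the 2 farthest. Per2 and Dbp did not pass with either score in any group. The summed muscle markers had medians of 52727, 86437 and 60387 CPM in young, old vehicle and old AP mice. Of the 15 markers 4 were called higher in old vehicle and 1 in old AP than in young mice, beside 9.06% and 8.58% of all genes. Between the old groups 0 were called by edgeR and by DESeq2, beside 0.0726% and 1.27% of all genes. In that comparison 2 had an unadjusted p under 0.05 by edgeR, and all 15 had a negative difference.

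**Figure D5:**
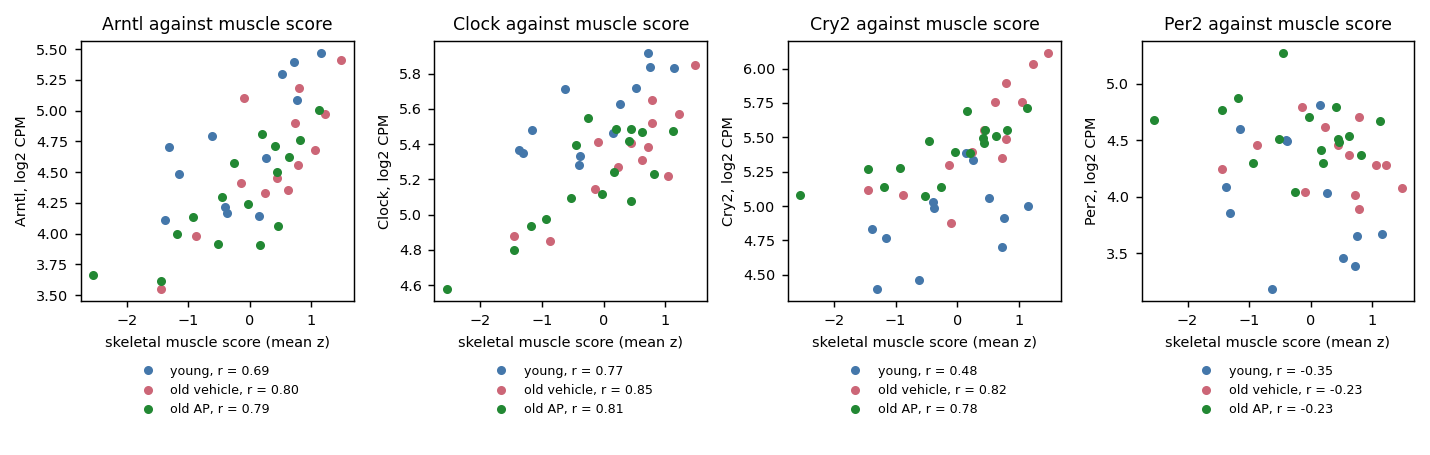
Log2 CPM of Arntl, Clock, Cry2 and Per2 against the skeletal muscle score (mean z-score of 15 markers) in each mouse, with Pearson's r within each group in the legend. Arntl and Clock rose with the score in all 3 groups (r 0.69 to 0.85), and Per2 did not pass in any (r -0.35 to -0.23).

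The genes whose level followed a member most closely were ranked by Pearson's r over the 41 mice after the mean of each group had been removed, among 15531 genes other than members with an average of at least 1 CPM. These r values are descriptions of mice that share tissue makeup and library. The highest with Dbp were Ctdsp2 (0.67), Ephx1 (0.64), Clip3 (0.63), Hlf (0.63) and Zc3h7b (0.60), and Hlf, which encodes a D-box factor of the same family, had rank 4 of 15531. The lowest with Dbp were RP24-245M20.4 (-0.65), Adam17 (-0.60), RP23-395H6.2 (-0.57), Ocrl (-0.56) and Pnpt1 (-0.56). The highest with Arntl were Pnpla3 (0.87), Osgepl1 (0.86), Rab28 (0.85), Opa1 (0.85) and Ice1 (0.85), and the lowest were Gltp (-0.84), Wasf2 (-0.83), Rpl3 (-0.81), Gnai2 (-0.81) and Ppp1r9b (-0.81). None of the 10 named for Arntl was on the clock gene list. Between members, on the same scale, the closest pairs were Arntl with Clock (0.84), Per2 with Per3 (0.81) and Nr1d1 with Nr1d2 (0.75), whereas Arntl and Per2 had -0.54 and Arntl and Dbp -0.44.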

How the data were processed

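RNA was sequenced from 41 tibiae, grouped by the sample labels. The labels list the molecule as genomic DNA, although the values are gene expression. The authors deposited raw read counts per gene, and the submitters' processing notes name TopHat2 2.0.6, HTSeq and the GRCm38 build. The annotation release and strand setting are not given in the sources used here. All count columns were mapped to a mouse. Counts were analysed in R 4.3.3 with edgeR 4.0.16 (filterByExpr, TMM, quasi-likelihood test of all 3 groups in a single model) and DESeq2 1.42.0 (variance-stabilized values and an alternative test). Log2 CPM used a prior count of 2. Correlations were computed with NumPy 2.4.6 in Python 3.11.15. Exon overlaps came from GENCODE M21 and promoters from RefSeq. The sequence of the Arntl promoter matches is not reported here. The statistical scripts were tested on simulated data.

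The members and lists were chosen with earlier results of these data known. The text names all 10 members, listed genes past the threshold in any comparison with up to 5 others per list, and the 5 genes most and least correlated with Dbp and with Arntl. Lists of osteoclast, erythroid, B cell, adipocyte, endothelial and macrophage markers were scored as well. Alternatives were DESeq2, its size factors, no filter, no fold threshold, 2-group models, muscle or neutrophil scores as covariates, variance-stabilized values and each mouse left out. The labels do not say that mice came from separate litters or cages, so p-values measure the spread between these mice.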

Additional observations from a re-analysis of the deposited data

How the results depend on the processing

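DESeq2, its size factors, no low-count filter and 2-group models kept the direction and call of all 30 member fold changes. Member calls, in the order old vehicle against young, old AP against old vehicle and old AP against young, were 1, 0 and 1. They became 2, 0 and 4 with no fold threshold, 0, 0 and 1 with the muscle score as a covariate, and 1, 0 and 2 with the neutrophil score, where Cry2 reached 0.61 between old AP and young mice (adjusted p 5.65e-05). Calls among the other clock genes, 2, 0 and 2, became 5, 0 and 2 with no fold threshold, 3, 0 and 3 with no low-count filter, 1, 0 and 2 with the muscle score, 4, 1 and 5 with the neutrophil score, 1, 0 and 2 in 2-group models and 3, 1 and 3 with DESeq2. Of all genes tested, 9.06%, 0.0726% and 8.58% were called, which became 9.27%, 1.27% and 8.68% with DESeq2, 9.13%, 0.0674% and 8.58% with its size factors, 6.01%, 0% and 5.52% with no low-count filter, 9.27%, 0.00518% and 10.2% with the muscle score, 15.2%, 0.549% and 9.54% with the neutrophil score and 9.89%, 0% and 8.57% in 2-group models. The direction turned with the neutrophil score for Arntl between old vehicle and young mice (0.058) and for Nr1d1 (0.14), Nr1d2 (0.11) and Dbp (0.071) between old AP and young mice, and with the muscle score for Clock (0.0045) and Cry1 (0.033) between the old groups, none of them past the adjusted p. The cause was not tested. Among the other genes named, the direction turned with the muscle score for Rbm3 (0.025), Tsc22d3 (-0.034) and Zbtb16 (-0.222) between old vehicle and young mice, for Bhlhe41 (0.117), Tef (0.124), Hlf (0.0287), Pdk4 (0.0245) and Zbtb16 (0.158) between the old groups and for Hspa1a between old AP and young mice (0.0013). It turned with the neutrophil score for Bhlhe41 (0.034), Tef (0.0328) and Hlf (0.0255) between the old groups and for Hspa1a (0.295), Cirbp (0.0506) and Zbtb16 (0.17) between old AP and young mice, and for Cirbp there with DESeq2 (0.0043) and its size factors (0.0040). None of these was called.

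With each mouse left out in turn, member calls ranged from 1 to 1, 0 to 0 and 0 to 2, and calls among the other clock genes from 0 to 4, 0 to 1 and 1 to 3. Cry2 passed between old AP and young mice without young mouse 30 or 35 (0.51 and 0.52). The other clock genes had no call between old vehicle and young mice without young mouse 38 or 39, 1 call without old vehicle mouse 23 or young mouse 31, 33 or 41, and 4 calls without old vehicle mouse 6 or 7. Npas2 passed between the old groups without old AP mouse 9 or 27 (adjusted p 0.0461 and 0.0453). Between old AP and young mice 1 call was left without old AP mouse 19. A member changed sign 16 times over these fits: Per3 between old vehicle and young mice (-0.099 to 0.018), Cry1 between the old groups (-0.037 to 0.029), and Per1 (-0.060 to 0.17) and Dbp (-0.15 to 0.077) between old AP and young mice, all uncalled. The other named genes that turned were Mt1 (-0.149 to 0.353) and Mt2 (-0.252 to 0.594) between old vehicle and young mice, negative without old vehicle mouse 16, Tsc22d3 (-0.056 to 0.218) and Zbtb16 (-0.018 to 0.216) in that comparison, Bhlhe41 (-0.107 to 0.0043) and Hlf (-0.051 to 0.038) between the old groups, and Hspa1a (-0.157 to 0.162) and Cirbp (-0.034 to 0.023) between old AP and young mice. Without the 2 mice farthest from the median of Arntl, r with Arntl turned sign for Nr1d1 (-0.0067) and Nr1d2 (-0.15) in young mice, Nr1d2 (-0.20) in old vehicle mice, and Per3 (-0.0075) and Cry1 (-0.021) in old AP mice, none of which had passed. Variance-stabilized values gave the same number of relations past the threshold (8), and 8, 7 and 5 members above the median SD in place of 8, 5 and 4. No paired analysis was possible because mouse numbers are not shared between groups. Depth did not limit the members, each of which had 355 reads or more in every mouse.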

Other observations

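The remaining marker lists moved as follows between the groups, beside 9.06% of all genes called between old vehicle and young mice and 8.58% between old AP and young mice, from which counts of 1 of 5 or 1 of 7 do not stand apart. Of 11 osteoblast and osteocyte markers 6 were called between old vehicle and young mice, 2 higher and 4 lower, and 9 between old AP and young mice, 2 higher and 7 lower. Of 7 matched erythroid markers 3 and 2 were called lower in the same comparisons, and of 7 B cell markers 5 and 1. Adipocyte markers had 1 gene higher and 1 lower and then 1 lower of 7, macrophage markers 1 lower of 5 matched in each, and neutrophil markers 0 (2 at an unadjusted p under 0.05, 0 by DESeq2) and then 2 higher of 8 (6 at an unadjusted p under 0.05, and 4 called by DESeq2). No endothelial (6 tested) or osteoclast (7 tested) marker was called in either comparison by edgeR or DESeq2; at an unadjusted p under 0.05 edgeR had 1 and 2 endothelial and 0 and 0 osteoclast markers. Cdh5, an endothelial cadherin gene, passed the adjusted p of edgeR but not the fold threshold between old vehicle and young mice (0.44, adjusted p 0.0103), with 9 of 13 old vehicle mice above every young mouse, and was called with the neutrophil score as a covariate (0.53, adjusted p 0.00015).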
